A study of Mus musculus with 6 samples.

Results

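Methylated regions were described at 7 genes that encode subunits of the GABA-A receptor: Gabra2, Gabra4, Gabra5, Gabrb1, Gabrb2, Gabrg1 and Gabrg3. All rows of 6 peak lists that name one of these genes were taken, whatever their class, which gave 94 peaks of 148832 in all. Peaks that shared at least 1 bp were merged, and the 94 peaks formed 27 of the 48853 regions. None of the 94 was also listed for another gene. Rows were found for 5 of the genes, and none for Gabra4 or Gabrb1.

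The lists come from MeDIP-seq, sequencing of methylated DNA after immunoprecipitation. Sheared DNA is enriched with an antibody to 5-methylcytosine, and peaks are called where its reads pile up. The DNA was from whole hippocampi, 1 mouse per library, taken on postnatal day 21 from 6 male C57BL/6 mice, and the labels name no engineered allele in either group. In the ethanol group, 3 pups had received 2.5 g/kg ethanol in 0.15 M NaCl as 2 subcutaneous injections on postnatal day 4 and 2 more on postnatal day 7. In the saline group, 3 pups had received 0.15 M saline on the same schedule. The labels call the pups matched littermates without saying who shared a litter, and the animals were treated as independent.

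GABA-A receptors are pentameric chloride channels that open when they bind GABA, and they carry most fast inhibition in the hippocampus. Alpha and beta subunits form the site for GABA, and a gamma subunit next to an alpha subunit forms the site for benzodiazepines. Early in life intracellular chloride is high and these channels can depolarise neurons, and receptors are among the known targets of ethanol. The genes lie in clusters. Mouse chromosome 5 holds Gabrg1, Gabra2, Gabra4 and Gabrb1 in that order, chromosome 7 holds Gabrg3 and Gabra5, and chromosome 11 holds Gabra6 and Gabrb2.

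The sequences below are 300 bases of the regions that the results turn on, read from the GRCm38 reference (mm10) on the plus strand, with every CpG in capitals. The first lies inside the last coding exon of Gabrb1. The next 3 lie in introns and were called in all 6 libraries. The last was called in the saline libraries only.
Gabrb1 last coding exon, chr5:72136482-72136781: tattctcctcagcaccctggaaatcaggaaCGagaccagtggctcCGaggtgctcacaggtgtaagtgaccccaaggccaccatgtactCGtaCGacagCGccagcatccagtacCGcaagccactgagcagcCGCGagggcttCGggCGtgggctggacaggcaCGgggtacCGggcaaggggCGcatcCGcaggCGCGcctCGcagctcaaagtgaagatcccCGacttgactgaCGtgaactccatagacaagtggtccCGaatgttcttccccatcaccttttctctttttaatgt
Gabra2 intron 3, chr5:71059663-71059962: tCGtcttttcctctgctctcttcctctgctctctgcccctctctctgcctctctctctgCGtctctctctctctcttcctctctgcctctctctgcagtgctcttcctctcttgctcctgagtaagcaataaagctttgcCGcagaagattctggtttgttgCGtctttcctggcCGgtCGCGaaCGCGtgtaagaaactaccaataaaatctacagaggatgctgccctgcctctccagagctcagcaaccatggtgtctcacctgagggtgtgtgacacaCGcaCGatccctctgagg
Gabrg3 intron 3 at 271 kb, chr7:57115283-57115582: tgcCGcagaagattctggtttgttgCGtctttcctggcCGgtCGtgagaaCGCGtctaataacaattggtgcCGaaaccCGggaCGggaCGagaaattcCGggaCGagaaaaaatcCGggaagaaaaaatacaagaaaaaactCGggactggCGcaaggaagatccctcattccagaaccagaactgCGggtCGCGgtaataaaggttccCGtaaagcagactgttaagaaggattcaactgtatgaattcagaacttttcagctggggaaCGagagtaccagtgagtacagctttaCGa
Gabrg3 intron 3 at 166 kb, chr7:57221182-57221481: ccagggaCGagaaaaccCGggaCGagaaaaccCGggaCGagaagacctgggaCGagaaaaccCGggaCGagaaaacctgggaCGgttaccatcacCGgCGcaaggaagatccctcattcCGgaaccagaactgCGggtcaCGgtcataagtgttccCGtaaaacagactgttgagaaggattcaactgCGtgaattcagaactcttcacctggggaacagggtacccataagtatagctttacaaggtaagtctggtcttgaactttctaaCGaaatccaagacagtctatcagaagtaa
Gabrg3 intron 3 at 247 kb, chr7:57139650-57139949: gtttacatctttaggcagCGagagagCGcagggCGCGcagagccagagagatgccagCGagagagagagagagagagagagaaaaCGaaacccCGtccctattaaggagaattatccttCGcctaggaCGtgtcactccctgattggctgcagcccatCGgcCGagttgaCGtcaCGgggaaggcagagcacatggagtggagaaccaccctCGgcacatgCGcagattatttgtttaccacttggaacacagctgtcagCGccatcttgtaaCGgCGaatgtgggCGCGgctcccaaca

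The sequences differ in kind. The Gabrb1 exon holds 20 CpG in its 300 bases, and 7.67% of these bases are soft-masked, the reference's mark for repeats. The 3 Gabrg3 windows hold 17 to 21 CpG and are soft-masked throughout. The Gabra2 window holds 11 CpG with 66.7% soft-masked.

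The 6 lists held 23141, 34904 and 28386 peaks in the ethanol libraries and 18922, 22703 and 20776 in the saline libraries. This is 28810.3 ± 5893 against 20800.3 ± 1891 (SD, n = 3 each), a ratio of 1.39, so longer lists go with the ethanol group throughout. Library totals were not used here. The lowest background pileup of each list was read from the ratio of summit pileup to fold enrichment. It was 2.16, 2.33 and 2.34 in the ethanol libraries and 1.85, 2.65 and 2.02 in the saline libraries. It can follow relative depth only if no control entered the calling, which the sources used here do not say. Of 24 marker genes of neurons, glia, endothelium and choroid plexus, 5 had a promoter peak in any library. They mark astrocytes, oligodendrocytes and endothelium, and no marker of neurons, microglia or choroid plexus had one. Cspg4 had it in 3 ethanol libraries and 1 saline library, and the others in 1 library each. The 5 were not set against a background, so no cell type was read from them. Promoter peaks do not measure RNA, so the tissue label could not be checked by expression.

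Most methylated peaks at the 7 genes belonged to the gamma subunit genes, and most of the gene body peaks were those of Gabrg3 alone. There were 13, 20 and 21 peaks in the ethanol libraries and 14, 14 and 12 in the saline libraries. The means were 18 ± 4.36 and 13.3 ± 1.15 (SD, n = 3 each), a ratio of 1.35, close to the 1.39 of the whole lists. The first ethanol library lay within the saline range, and the others lay above it. As a share of the list, the peaks made up 0.0562%, 0.0573% and 0.0740% in the ethanol libraries and 0.0740%, 0.0617% and 0.0578% in the saline libraries. These shares overlapped. The widest of their Wilson 95% intervals, which cover counting error only, ran from 0.0441% to 0.124% in saline 1.

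The gene body class held 9, 11 and 14 of the peaks in the ethanol libraries and 7, 10 and 9 in the saline libraries. As a share this was 63.6% ± 7.59 and 65.5% ± 13.5, against 24.3% ± 0.438 and 24.1% ± 0.202 of all peaks in the same lists (SD, n = 3 each). Gabrg3 carried this share: all 51 of its peaks over the 6 libraries were in the gene body, against 9 of 43 (20.9%) at the other genes, 6 of them at Gabra2 and 3 at Gabrg1. The intergenic class held 3, 8 and 6 peaks in the ethanol libraries and 6, 3 and 3 in the saline libraries. The promoter class, with the summit within 2000 bp of a coding start, held 1 peak in each ethanol library, and 1, 1 and 0 in the saline libraries. None of these classes separated the groups.

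The plot of peaks per gene shows how unevenly the genes were covered. Gabrg3 had 51 peaks over the 6 libraries, Gabrg1 had 25, Gabrb2 had 10, Gabra2 had 7 and Gabra5 had 1. Across all 13143 genes in the lists the median was 6, and 3.00% of genes had as many as Gabrg3 and 11.5% as many as Gabrg1. In every ethanol library Gabrg3 had more peaks than Gabrg1, while in the saline libraries the counts of both genes reached 6 in saline 1. The counts of Gabrb2 and Gabra2 overlapped in both groups.

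**Figure D1:**
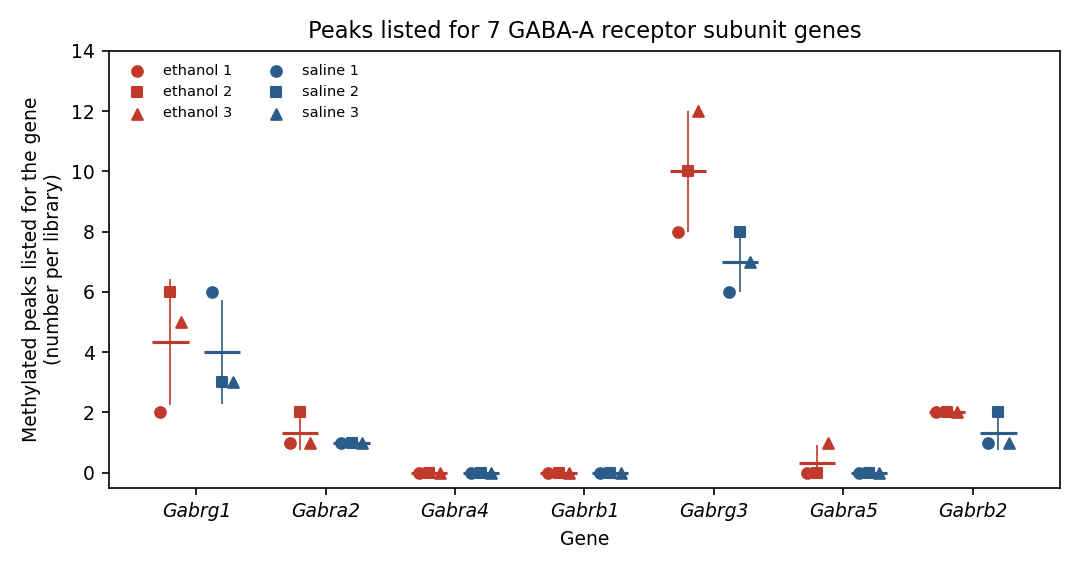
Number of methylated peaks listed for each gene in each library, ethanol in red and saline in blue. Short bars are means and thin lines 1 SD (n = 3 each). Gabrg3 had 8 to 12 peaks in ethanol and 6 to 8 in saline libraries, and Gabra4 and Gabrb1 had none.

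None of the 7 genes had more peaks in every ethanol library than in any saline library, and none had fewer. Among all genes, 5.12% had more peaks in every ethanol library and 0.0989% had fewer. An exact permutation test over the 20 divisions of 6 libraries into 3 and 3 cannot give a two-sided p below 0.1, so no gene could pass 0.05. Of all genes, 686 reached that smallest p, 0 had a p under 0.05, and the Benjamini-Hochberg adjusted p over all 13143 genes was 1 for each of the 5 genes with peaks. The median difference over all genes, ethanol minus saline, was 0.333 peaks.

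Gabrg3 encodes the gamma-3 subunit. It had 8, 10 and 12 peaks in the ethanol libraries and 6, 8 and 7 in the saline libraries. The groups met at 8 peaks. The means were 10 ± 2 and 7 ± 1 (SD, n = 3 each), a difference of 3 peaks (two-sided exact permutation p = 0.2). Without ethanol 1 the groups no longer overlapped and the difference was 4 (exact permutation p = 0.1, adjusted 0.661). Without saline 2 they did not overlap either, with a difference of 3.5 (exact permutation p = 0.2). The share of all genes that separate in these settings was not counted. With any other library left out the difference was 2 to 3 (exact permutation p = 0.2 to 0.3). With only the 18922 most significant peaks of each list, the length of the shortest, it was 1.33.

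The gene spans 671 kb on the minus strand, and its 14 regions all lay in introns, 9 in intron 3, 4 in intron 5 and 1 in intron 2. The density was 2.09 regions per 100 kb, against 1.79 for the genome. Among 226 genes whose length was within a factor of 1.5, the median was 7 regions and 20.4% had 14 or more. The start of the gene was free of peaks. The edge of the nearest region lay 13.1 kb from the promoter window, taken as 250 bases before to 50 after the start in RefSeq, and that window holds 13 CpG.

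**Figure D2:**
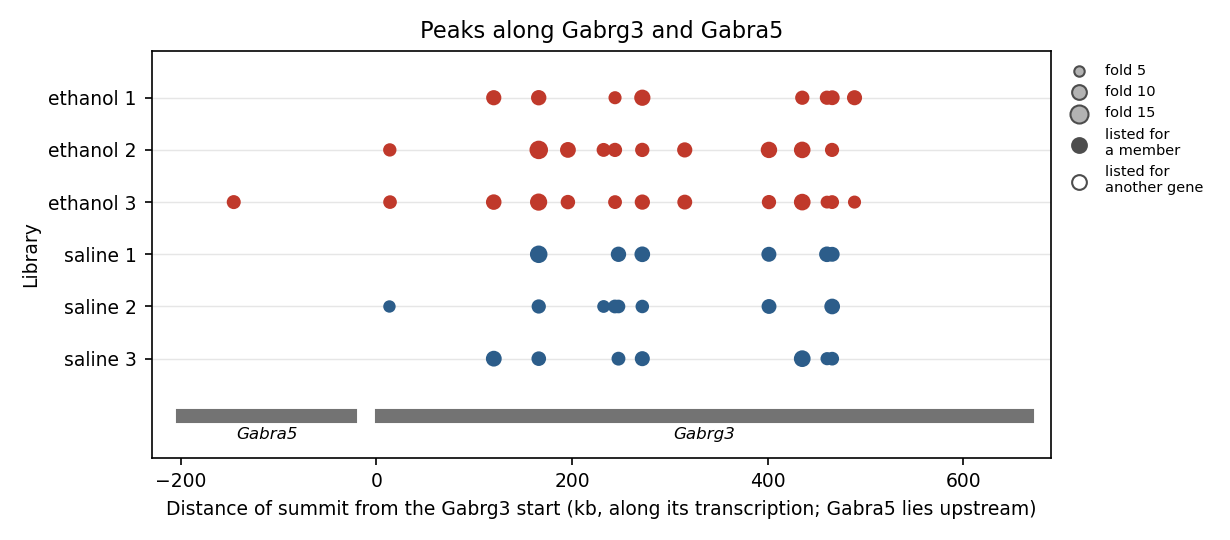
Peaks along Gabrg3 and Gabra5 on chromosome 7 by library, as distance of the summit from the Gabrg3 start in kb, ethanol in red above saline in blue. Symbol area follows the authors' fold enrichment, and grey bars are RefSeq gene spans. Peaks run through the Gabrg3 introns in every library, and 1 peak lies in Gabra5.

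Of the Gabrg3 regions, 3 were called in all 6 libraries. Their folds, the ratio of summit to local background, are the authors' own values per peak and describe each list alone. The region at 466 kb from the start (intron 5, chr7:56920924-56921904) had folds of 7.76, 6.95 and 6.61 in the ethanol libraries and 7.82, 8.80 and 6.45 in the saline libraries. The region at 271 kb (intron 3, chr7:57115137-57115825), whose sequence is shown, had 9.50, 7.14 and 8.24 in the ethanol libraries and 8.76, 6.23 and 7.98 in the saline libraries. In both regions the groups overlapped. The region at 166 kb (intron 3, chr7:57220927-57221714), also shown, had 8.38, 12.7 and 10.8 in the ethanol libraries and 11.3, 7.06 and 7.48 in the saline libraries. Here 2 ethanol libraries were high and 1 saline library was as high as they were, so the groups overlapped again.

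**Figure D3:**
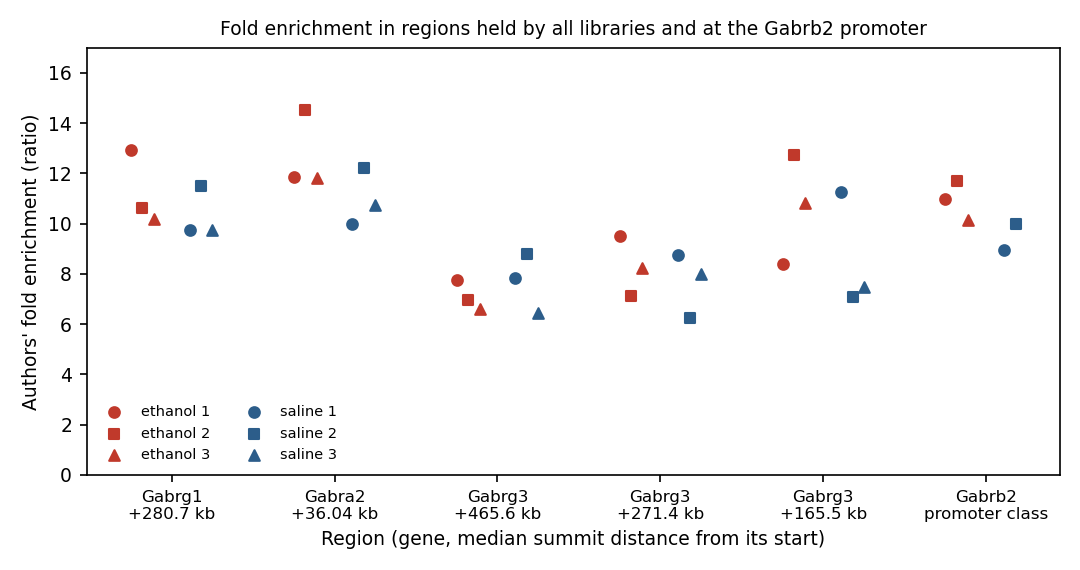
The authors' fold enrichment per library in the 5 regions called in all 6 libraries and in the Gabrb2 region of the promoter class, ethanol in red left of saline in blue. In each region the groups overlap except at Gabrb2, where saline 3 has no peak and the other libraries run from 8.95 to 11.7.

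No region of the 27 was called in all ethanol and no saline libraries, and 1 was called in all saline and no ethanol libraries. Among all regions, 1.49% were called in all ethanol and no saline libraries, and 0.108% in all saline and no ethanol libraries. The saline-only region lies in intron 3 of Gabrg3, 247 kb from the start (chr7:57139483-57140078), and is shown above. Its 3 peaks had folds of 8.38, 6.39 and 6.63 and summit pileups of 52, 56 and 33.

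A near-identical sequence lies 2.92 kb away in the same intron (chr7:57143003-57143706), and peaks there showed the opposite balance. It was called in all ethanol libraries, with folds of 5.80, 7.03 and 6.58, and in saline 2 alone of the saline libraries, with 6.53. The sequences were 98.9% identical over 467 aligned bases and shared a run of 238 bases with 15 CpG that occurs 2 times on the reference chromosomes, once in each. Every library had a peak in one or the other, and saline 2 had both. The summed pileup of the pair was 36, 57 and 46 in the ethanol libraries and 52, 112 and 33 in the saline libraries, which overlapped. Counted as 1 region, a choice made after seeing the data, the pair was called in all 6 libraries and no group-specific region was left. The sources used here do not say how reads that match both copies were placed, and the part of this in the result was not tested.

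The Gabrg3 regions fell into CpG-rich and CpG-poor sequence. Of the 14, 8 held 3.63 to 6.20 CpG per 100 bp, above the median of 2.27 over all regions, and all 8 were soft-masked over at least 95% of their length. The other 6 held 0 to 1.15. A region at 232 kb, called in ethanol 2 and saline 2, holds no CpG in its 582 bp and had folds of 6.71 in ethanol 2 and 5.50 in saline 2. Singled out after their values were seen, the 3 regions called in ethanol but no saline libraries, each in 2 of them, held 0.460, 0.323 and 0.565 CpG per 100 bp. The remaining CpG-poor regions, at 0.495, 0 and 1.15, had saline peaks as well. Over all regions called in 2 libraries the median was 2.02. The share of all regions called in 2 ethanol and no saline libraries was not counted, so no link of low CpG to ethanol is read from these 3. The ethanol lists are also the longer ones, and the part of list length in the ethanol-only calls was not tested.

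Genes with the most similar counts to Gabrg3 over the 6 libraries were Gm13247, Ccl21c and Gm10591. Gm13247 had 8, 11 and 12 peaks in the ethanol libraries and 6, 8 and 6 in the saline libraries, a Euclidean distance of 1.41 peaks. Ccl21c, a chemokine gene, and Gm10591 each had 8, 11 and 11 in ethanol and 7, 8 and 6 in saline, a distance of 2.

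Gabra5 encodes the alpha-5 subunit, which hippocampal pyramidal neurons use for tonic inhibition. It had 1 peak, in ethanol 3 (chr7:57532906-57533385), with a fold of 6.80. The list places it 23.2 kb upstream of the Gabra5 start and calls it intergenic. The RefSeq span of Gabra5 includes it. Ethanol 3 was the only library with a peak in the 183 kb of the gene. Together Gabrg3 and Gabra5 had 8, 10 and 13 peaks in the ethanol libraries and 6, 8 and 7 in the saline libraries.

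Gabrg1 encodes the gamma-1 subunit. It had 2, 6 and 5 peaks in the ethanol libraries and 6, 3 and 3 in the saline libraries. The counts of each group spread over those of the other. The means were 4.33 ± 2.08 and 4 ± 1.73 (SD, n = 3 each; two-sided exact permutation p = 1), and the sign of the difference turned to -0.333 with lists of equal length and with summits inside the gene. Of the 25 peaks, 22 lay outside the 91.6 kb gene, in 7 of its 8 regions, and only the region in intron 8 (chr5:70761440-70762809) lay within it. That region had a peak in ethanol 3, saline 2 and saline 3 and held 6.06 CpG per 100 bp.

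The strongest region listed for Gabrg1 lay 281 kb downstream of its start (chr5:70561588-70562234), where GENCODE has an exon of Gm42653. It was called in all 6 libraries, with folds of 12.9, 10.6 and 10.2 in ethanol and 9.75, 11.5 and 9.73 in saline libraries. The groups overlapped. By -log10 q it ranked above 80.8% to 92.5% of the peaks of each list. The others lay from 70.6 kb upstream to 599 kb downstream and were called in 1 to 5 libraries.

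Gabra2 encodes the alpha-2 subunit, found at synapses on the axon initial segment, and the gene has been studied for its association with alcohol dependence. It had 1, 2 and 1 peaks in the ethanol libraries and 1 in each saline library (two-sided exact permutation p = 1). All libraries shared a peak in intron 3, 36.0 kb from the start (chr5:71059472-71060167), whose sequence is shown. This was the region with the highest fold at the listed genes, at 11.8, 14.5 and 11.8 in the ethanol libraries and 10.0, 12.2 and 10.8 in the saline libraries. Ethanol 2 stood highest, and the groups overlapped. The summits lay within 151 bp of each other. The second ethanol library had a further peak 159 kb upstream (chr5:71254309-71254857) with a fold of 7.70.

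Gabra4 encodes the alpha-4 subunit, which pairs with delta in receptors outside synapses of the dentate gyrus. No list names it, and no region lay in its 88.6 kb. Of 2538 genes of similar length, 29.0% had none. The nearest region, whose edge lay 12.1 kb away and which was called in all 6 libraries, was listed for Cox7b2.

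Gabrb1 encodes the beta-1 subunit and starts beside Gabra4, on the opposite strand. No row names it, but 17 peaks in 3 regions lay within its 492 kb, and the lists assign all of them to Commd8 and class them as intergenic. The start of Commd8 was 31.5 to 98.3 kb from these summits, while the Gabrb1 start was 412 to 479 kb away. These regions are outside the rule for the 94 peaks and were chosen after their values were seen.

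The last coding exon of Gabrb1 was methylated in every library. The region (chr5:72136295-72137067) covers the coding part of exon 9, 342 bp that encode the C-terminal end of the protein, and runs on into the untranslated part. Its folds were 13.5, 15.9 and 14.3 in the ethanol libraries and 15.2, 13.9 and 15.2 in the saline libraries, and its summit pileups were 109, 150 and 140 in ethanol and 80, 131 and 121 in saline. The groups overlapped in both measures. The lowest of these folds exceeded all but 1 of the folds of the 94 listed peaks, the exception being Gabra2 in ethanol 2.

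Of the 64 coding exons of the 7 genes in GENCODE's principal transcripts, this was the only one that overlapped a region. With the other GABA-A subunit genes included, 4 of 174 did. Among them, an exon of another subunit gene also overlapped a region called in all 6 libraries. Over 198622 coding exons of 22487 genes, 3.87% overlapped a region and 0.999% overlapped one called in all 6 libraries. The Gabrb1 exon holds 6.43 CpG per 100 bp, against a median of 1.85 over the 64, of which 3 including it held as many. The last coding exon of Gabrb2, another beta subunit gene, holds 3.77 CpG per 100 bp and overlapped no region. The Gabrb1 region shared no stretch of 31 bases with any other region.

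The other Gabrb1 regions lay in repeats. One, 412 kb from the start (chr5:72069631-72070281), was called in all 6 libraries with folds of 7.57, 8.95 and 8.82 in ethanol and 11.5, 9.42 and 9.88 in saline libraries. Here each ethanol fold was below each saline fold, without a test, since folds are set within a list. Its summit pileups, 28, 35 and 29 in ethanol and 42, 36 and 34 in saline libraries, overlapped. How often folds split this way over all regions was not counted. The other, 419 kb from the start (chr5:72075557-72077010), was called in all ethanol libraries and in saline 1 and saline 3. These neighbours share an identical run of 368 bases that occurs 2 times on the reference chromosomes.

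**Figure D4:**
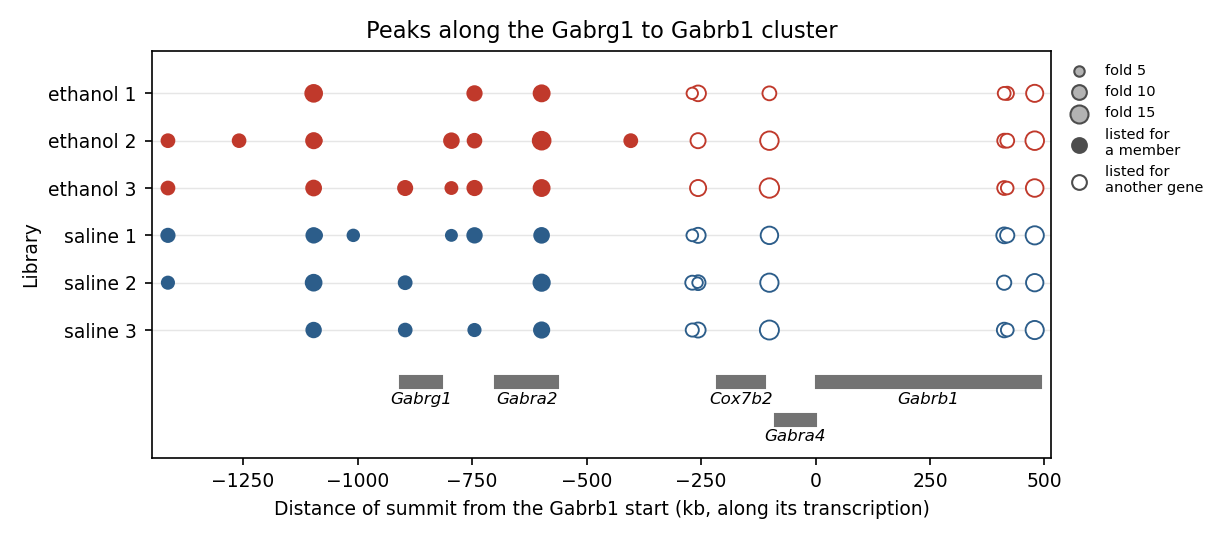
Peaks along the chromosome 5 cluster by library, as distance of the summit from the Gabrb1 start in kb, ethanol in red above saline in blue. Symbol area follows the authors' fold enrichment, filled symbols are listed for 1 of the 7 genes and open symbols for another gene, and grey bars are RefSeq spans. Open symbols near 412, 419 and 479 kb are the Gabrb1 regions listed for Commd8, and Gabra4 has none.

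From Gabrg1 to Gabrb1 the cluster covers 1399 kb and held 11 regions, 0.787 per 100 kb against 1.79 for the genome. It had 8, 9 and 9 peaks in the ethanol libraries and 9, 8 and 9 in the saline libraries. These means were equal, 8.67 ± 0.577 in each group (SD, n = 3), although the ethanol lists were longer. Of the 11 regions, 5 were called in all 6 libraries and none was specific to a group.

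Gabrb2 encodes the beta-2 subunit, a part of the most common receptor of the adult brain. It had 2 peaks in each ethanol library and 1, 2 and 1 in the saline libraries. The groups met at 2. The means were 2 ± 0 and 1.33 ± 0.577 (SD, n = 3 each; two-sided exact permutation p = 0.4). Without saline 2 the groups no longer overlapped, with a difference of 1 (exact permutation p = 0.1). With any other library left out the difference was 0.5 to 0.667 (exact permutation p = 0.4). The share of all genes that separate without saline 2 was not counted.

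One of its regions was the only promoter-class region at the 7 genes and lay upstream of the listed start. Its folds were 11.0, 11.7 and 10.2 in the ethanol libraries and 8.95 and 9.99 in saline 1 and saline 2, and saline 3 had no peak. Each ethanol fold was above the folds of saline 1 and saline 2, again without a test, and saline 3 gave no value to compare. How often folds split this way over all regions was not counted. Pileups were 39, 46 and 34 in ethanol and 26 and 44 in saline 1 and saline 2, which overlapped. A missing peak means that the calling threshold was not reached in that list, not that methylation was absent.

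The second Gabrb2 region lay 345 kb downstream of the start, beyond the gene (chr11:42764117-42764900). It was called in all ethanol libraries, with folds of 8.65, 9.90 and 8.12, and in saline 2 and saline 3, with 7.12 and 7.16. No region lay inside the 213 kb of Gabrb2, as for 10.7% of 1052 genes of similar length.

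No start site checked at the 7 genes was itself in a peak. RefSeq gives 10 promoter windows of 300 bases for them, with 3 CpG at Gabrg1, 9 to 13 at Gabra4, Gabrg3, Gabra5 and Gabrb2, 25 at Gabra2, and 25 and 9 at the upstream and downstream starts of Gabrb1. None of the 10 overlapped a region. The RefSeq spans of Gabra5 and Gabrb2 begin at further starts that are not among the 10. The median over 32817 promoter windows was 7 CpG.

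Sequence shared between places in the genome was common among the regions of these genes. Of the 27, 25 (92.6%) shared a stretch of 31 bases with at least 1 other region, against 65.8% of all regions and 75.7% of those called in all 6 libraries. The median number of such other regions was 1363 and the highest was 6092. A shared stretch does not make a whole region multicopy. Among the 25, from 1.69% to 100% of a region's own stretches were shared. The region with 6092 shared 9.35% of its own. Median soft-masked share was 97.1%, against 44.9% over all regions, and median CpG density was 3.24 against 2.27 per 100 bp. GC content was 47.9% against 48.1%. The sources used here do not name the repeats.

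**Figure D5:**
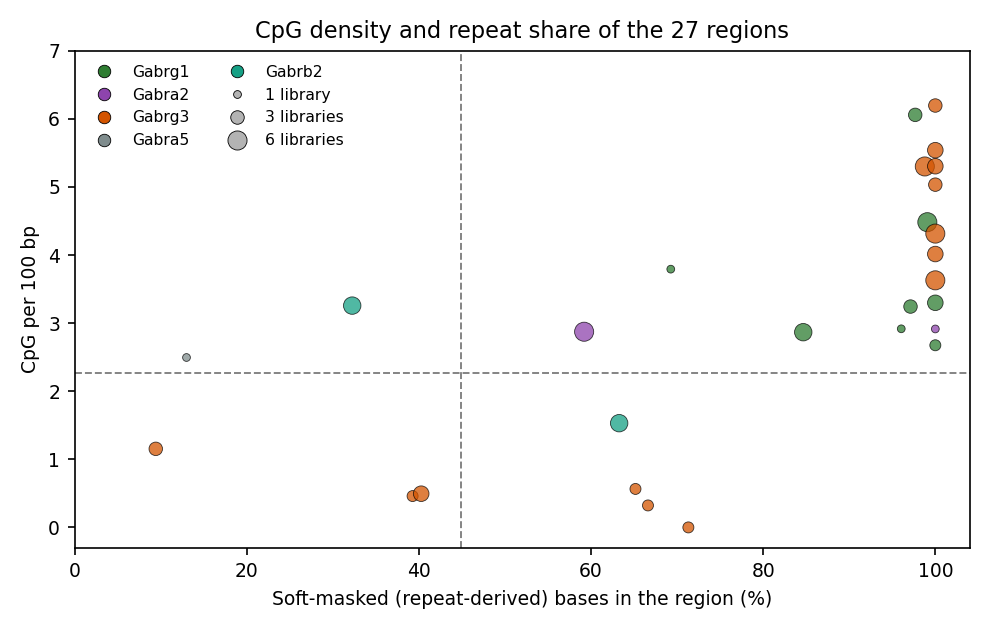
CpG per 100 bp against the percentage of soft-masked bases for the 27 regions, coloured by gene, with symbol area following the number of libraries that called the region. Dashed lines are the medians over all 48853 regions, 2.27 CpG per 100 bp and 44.9%. Of the 27, 20 lie above the CpG median and 15 are soft-masked over at least 95% of their length.

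Few of the regions at these genes belonged to a single library. Of the 27, 5 (18.5%) were called in all 6 libraries, against 21% of all regions, and 4 (14.8%) in a single library, against 34.7%. More ethanol than saline libraries called 14 of them and more saline libraries called 3, against 51.8% and 14.7% of all regions.

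Of 12 other GABA-A subunit genes, 8 had a peak, 0 had more or fewer peaks in every ethanol library, and none had a promoter peak. The mean was higher in ethanol for 5, lower for 1 and equal for 2, with a median difference of 0.333 peaks, the same as over all genes.

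Of 24 genes of GABA synthesis, transport, chloride balance and receptor anchoring, 16 had a peak, and their median difference was 0.5 peaks. Slc12a2, which encodes the chloride importer NKCC1, was the only one with more peaks in every ethanol library, and none had fewer. It had 2, 4 and 3 peaks in the ethanol libraries and 1 in each saline library, a difference of 2 (two-sided exact permutation p = 0.1, adjusted 1 over all genes). With 5.12% of all genes doing so, 1 of 16 is close to the background.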

How the data were processed

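Per the labels, 150-cycle MeDIP-seq reads were aligned to mm10 with Bowtie, and MACS version 2 called peaks at a q threshold of 1e-04. The submitters' processing notes name Bowtie2 2.1.0. The authors deposited 1 peak list per library, so replicates were not pooled at calling. Per the file headers, each peak has a summit pileup (a coverage signal, not scaled to depth), a fold enrichment (a ratio to the local background) and a q, whose deposited values are -log10 of q and began at 5.00 to 5.23. The file headers also give the nearest gene, the class and the distance from summit to start. The sources used here do not say whether a control entered the calling or how reads matching several places were placed.

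From these lists, distinct peaks were counted per gene and library and compared by two-sided exact permutation tests, with Benjamini-Hochberg adjustment over all 13143 genes. Peaks sharing at least 1 bp formed regions. The lists hold no read counts for uncalled sequence, so presence of a peak was the readout, and no test was made on sums over the genes. Wilson 95% intervals cover counting error only. Methylation in more cells and more methylation per cell cannot be told apart in whole hippocampus. CpG density, soft-masking, shared 31-base stretches and identical runs came from the GRCm38.p6 reference, whose length contained the last peak on 22 of 22 chromosomes, and exons from GENCODE release M21. Promoter windows matched all 7 genes in RefSeq (GRCm38.p6). Similar length means within a factor of 1.5.

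Genes were named by rule: the 7 genes, their regions called in all 6 libraries, specific to a group or of promoter class, the 3 genes nearest to Gabrg3 in counts, and list genes that separated the groups or had a promoter peak. Some genes that the rule covers are not reported here, and sequences are shown for 5 regions only. The genes, lists and tests were chosen with earlier results of these data known. Alternatives were equal list lengths, a -log10 q of at least 10, gene spans in place of the listed gene, every row in place of distinct peaks, other overlap rules, leaving out each library, and pairing by number. The counting and tests were tested on simulated data, with added differences far larger than those found here. That run does not show whether small differences would be found. Python 3.11.15, pandas 2.3.3, numpy 2.4.6, scipy 1.17.1 and pysam 0.24.0 were used.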

Additional observations from a re-analysis of the deposited data

How the results depend on the processing

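The peak lists set the main limits: 3 against 3 libraries cannot give an exact permutation p below 0.1, an uncalled region has no value, and list length goes with the groups. With lists of equal length, the difference in summed peaks at the 7 genes was 1.33, against 4.67 as reported, and Gabrg1 turned to -0.333, as it did with summits inside the gene span. Leaving out 1 library turned Gabrg1 to as low as -0.5 (without ethanol 2) and -0.167 (without saline 2 or saline 3), with 1.5 as the highest value. Members with more peaks in every ethanol library numbered 1 at a -log10 q of at least 10, where Gabrg3 differed by 3.33 (exact permutation p = 0.1), and 0 to 2 when 1 library was left out. Regions called in all ethanol and no saline libraries numbered 0 to 2 when 1 library was left out, with 2 without ethanol 1 and 1 without ethanol 2, saline 2 or saline 3. Fewer libraries then had to meet the rule, and the cause of these counts was not tested. The shares over all genes and all regions, 5.12% and 1.49%, hold for the full lists of all 6 libraries. They were not counted under these other settings, so these counts cannot be set against a background. The saline-only count was 1 under each other setting tried and 0 with the near-identical Gabrg3 neighbours counted as 1 region, an alternative chosen after seeing the data.

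Of 77 recomputed differences of single genes, 5, all of Gabrg1, changed sign and 72 did not. Gabra4 and Gabrb1 supplied 11 each, where no sign change could be scored because their reported difference was 0. Counting every row and pairing by number repeated the reported differences. The 72 are therefore no measure of stability. The lowest adjusted p among the 77 was 0.661 by the exact permutation test. The difference in gene body share (-1.84 percentage points as reported) was -9.58 to 2.92 with 1 library left out, and that in share of the list (-0.00199) was -0.00773 to 0.00277, and 0.00705 with lists of equal length. Neither keeps its sign, and the moves, also at a -log10 q of at least 10, were less than 1 SD between libraries. The other alternatives were not run on these shares. Across 7789 genes, which are not independent replicates, the deviations of same-numbered libraries correlated at 0.0220, 0.0591 and 0.00750. Those of differently numbered libraries ran from -0.0487 to 0.0223. Such correlations of peak counts cannot show whether equal numbers mark littermates, so the pairing stayed unknown. With the replicate block, Gabrg3 differed by 3 (exact sign-flip permutation p = 0.25, the smallest that 3 pairs allow) and Gabrb2 by 0.667 (exact permutation p = 0.5).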
